A study of Rattus norvegicus with 6 samples.

Results

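The 10 genes described here are regulators and targets of the transcriptional coactivators YAP and TAZ: the targets Ctgf, Cyr61 and Ankrd1, the scaffold genes Amotl1 and Amotl2, the kinases Lats1 and Lats2, the coactivators Yap1 and Wwtr1, and the DNA-binding partner Tead1. They were chosen by gene symbol, and all 10 were found among the 17525 genes measured. Ctgf and Cyr61 are the older symbols of Ccn2 and Ccn1. Messenger RNA was read from primary ovarian granulosa cells of rats of the strain labelled SD. Granulosa cells are the follicle cells that surround the oocyte. The rats were 21 days old and had received 60 IU of PMSG, a gonadotropin that drives follicle growth, 48 h before their ovaries were taken, and the dispersed cells were cultured in medium with fetal bovine serum. The titles give 3 libraries to a group named ATR and 3 to a group named Control, and the series' title concerns long exposure to the herbicide atrazine. Values below are of ATR 1, ATR 2 and ATR 3 alone. Control is not analysed here, so no value is an effect of exposure. The labels state neither how the ATR cells were treated nor whether each library came from its own animal or culture, so the spread between libraries may be technical.

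YAP, the product of Yap1, and TAZ, the product of Wwtr1, carry signals from cell shape, stiffness and contact into the nucleus. In the Hippo pathway the MST kinases activate LATS1 and LATS2, which phosphorylate YAP and TAZ and so hold them in the cytoplasm. Without that mark they enter the nucleus, bind TEAD factors on DNA and switch on genes such as Ctgf, Cyr61 and Ankrd1. Angiomotin-like scaffolds bind YAP and TAZ at cell junctions, and Lats2 and Amotl2 are themselves targets that feed back on the pathway. In the ovary, cutting the tissue is known to disrupt Hippo signalling and to raise CCN factors. Because the pathway works largely through phosphorylation and location of proteins, messenger RNA levels do not measure its activity.

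The libraries held 18677212 to 19170552 reads assigned to genes. Of 12 granulosa markers, 9 reached a mean of 1 TPM (a level scaled for transcript length and library size). Aromatase (Cyp19a1), Amh and the receptor Lhcgr stayed below it. Among all genes measured 71.4% reached 1 TPM, so counts at this level identify no cell type. Markers of other cells were present as well, some at higher levels. By mean TPM among all genes, Tagln and Acta2 of smooth muscle ranked 1 and 6. Col1a1 of stroma ranked 23 and Upk3b of surface epithelium 86, beside 49 for Gja1, the highest granulosa marker. Other granulosa markers followed, with Inha at 359, Inhba at 619 and Gata4 at 965. Markers of the other types also ranked far lower, as did Des at 8363 and Notch3 at 12154 of smooth muscle and Pdgfra of stroma at 10886. Krt19, Epcam, Cdh1 and Muc16 of surface epithelium were below 1 TPM. These single markers were picked for high or low levels and do not stand for their lists. All 7 measured smooth muscle and pericyte markers, all 8 stromal markers and 6 of 10 surface epithelium markers reached 1 TPM, against 1 of 5 measured endothelial markers, 4 of 6 leukocyte markers, 2 of 5 theca markers and 1 of 4 oocyte markers. In bulk RNA such as this, fewer cells of a type and less RNA per cell cannot be told apart.

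All 10 genes were expressed. In TPM each of the 3 genes taken here as targets lay above each of the 7 regulators, most narrowly Ankrd1 over Amotl2 at 1.93 times, a pair whose order turns in CPM, as given further on. The 10 together held 0.660% ± 0.0181 of all TPM (SD, n = 3), of which the 3 targets held 0.555% ± 0.0135 and the 7 regulators 0.106% ± 0.0048. Of the 10, 8 had a mean of 100 TPM or more, as had 10.7% of all genes measured. The median of the 10 means was 169.5 TPM, beside 10.1 TPM over all genes. These genes were selected with earlier results of these data known, so this height is a description.

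**Figure D1:**
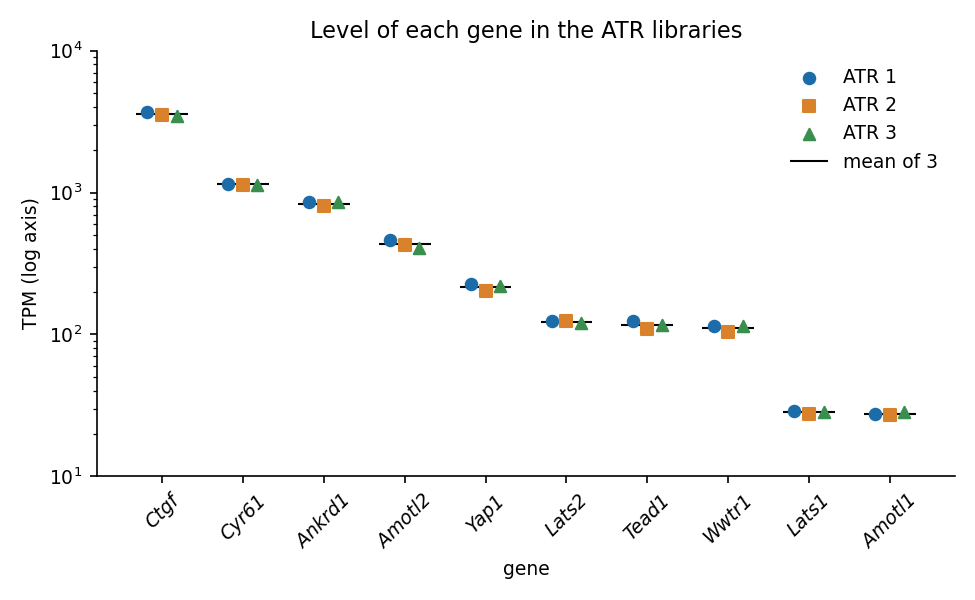
TPM of each of the 10 genes on a log axis, with 1 point for each of the 3 ATR libraries and a bar at their mean, ordered by mean. The points of a gene nearly coincide, while the genes span from 27.7 TPM for Amotl1 to 3569 TPM for Ctgf.

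Ctgf encodes connective tissue growth factor, a secreted CCN protein that promotes matrix production. ATR 1, ATR 2 and ATR 3 had 3689.7, 3537 and 3480.35 TPM of it, and values of other genes follow that order of libraries. With a mean of 3569 ± 108 TPM (SD, n = 3) it ranked 14 among the 17525 genes and lay 352 times above the median gene. It was highest in ATR 1, and the highest value exceeded the lowest by a factor of 1.06. Alone it made up 0.357% ± 0.0108 of all TPM.

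Cyr61 encodes another secreted CCN protein, which binds integrins and acts in adhesion and wound repair. Its values were 1158, 1139.8 and 1126 TPM, with a mean of 1141 ± 16.2 TPM (SD, n = 3) and rank 131. Of the 10 genes it had the smallest coefficient of variation, 1.42%, so its libraries were nearly level. In every library Ctgf lay above Cyr61, by factors of 3.19, 3.10 and 3.09.

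Ankrd1 encodes a nuclear ankyrin repeat protein of muscle that is among the most used YAP readouts. It had 855, 804 and 853 TPM, a mean of 837 ± 28.9 TPM (SD, n = 3) and rank 183. ATR 2 was the low library, while ATR 1 and ATR 3 were close to each other. Cyr61 exceeded Ankrd1 in each library, with a mean ratio of 1.36 ± 0.0499, and their ranges did not overlap.

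The upstream sequences of Ctgf and Cyr61 are shown because they hold the core motif recognised by TEAD factors, the partners of YAP and TAZ. Both are RefSeq sequences of assembly GRCr8 covering the 250 bases before the start, on the minus strand, at chr1:22624615-22624864 for Ctgf and chr2:237225690-237225939 for Cyr61. Capitals mark the TEAD core CATTCC or its reverse complement GGAATG.
Ctgf: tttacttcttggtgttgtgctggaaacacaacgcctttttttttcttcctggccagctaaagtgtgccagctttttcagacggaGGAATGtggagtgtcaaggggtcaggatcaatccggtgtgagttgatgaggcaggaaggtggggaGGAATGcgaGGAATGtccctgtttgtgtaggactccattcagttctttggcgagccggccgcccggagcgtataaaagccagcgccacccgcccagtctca
Cyr61: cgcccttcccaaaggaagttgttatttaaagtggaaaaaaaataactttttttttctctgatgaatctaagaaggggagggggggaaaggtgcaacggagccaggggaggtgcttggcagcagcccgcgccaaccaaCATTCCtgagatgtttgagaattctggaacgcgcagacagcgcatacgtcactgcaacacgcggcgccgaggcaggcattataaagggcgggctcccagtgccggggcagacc
The Ctgf sequence holds 3 copies of GGAATG, whose first bases lie at -166, -101 and -92 from the start. That of Cyr61 holds 1 copy of CATTCC, at -113. A match of this kind is a run of letters and not a measured binding site.

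Among the 10 genes, 7 had a promoter in the RefSeq table, and Ankrd1, Lats2 and Tead1 were not among them. CATTCC, on either strand, occurred in 4 of these 7 (Ctgf, Cyr61, Amotl2 and Yap1) and in 11.7% of 27457 promoters of the same length, 1 window per gene. Ctgf was the only one of the 7 with 3 copies, a number found in 26 promoters of the table (0.0947%). The windows of Amotl2 and Yap1 lie before a start that is not the outermost one in RefSeq, with their matches at -76 and -116. The AP-1 motif TGANTCA, read on both strands, was found in Amotl1 alone, as TGAGTCA at -93, and in 6.34% of all promoters. Amotl1 had 5 promoter windows, of which only that at the outermost start was read. The CArG box, the binding motif of serum response factor, was in none of the 7 and in 1.51% of all promoters. No match overlapped another. Among signature genes other than these 10, described further on, 2 of the 12 with a promoter held CATTCC, namely Ptpn14 and Nuak2. Their windows also lie before a start that is not the outermost one.

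**Figure D2:**
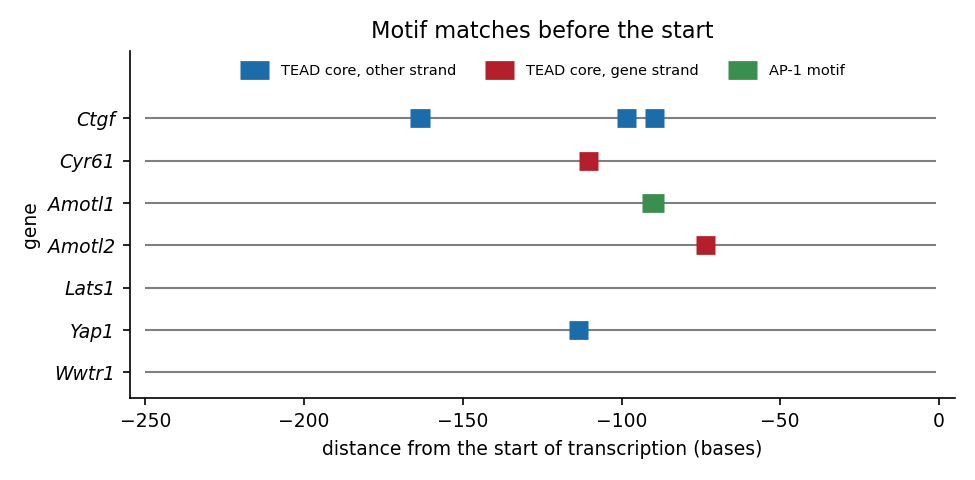
Positions of motif matches in the 250 bases before the start of transcription, for the 7 genes with a promoter in the RefSeq table; the x axis is distance from the start in bases. Ctgf carries 3 TEAD core matches, Cyr61, Amotl2 and Yap1 carry 1 each, Amotl1 carries an AP-1 match, and Lats1 and Wwtr1 carry none.

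Among the regulators, Amotl2 was the most abundant. Amotl2 encodes a junctional scaffold that binds YAP and helps to keep it out of the nucleus. It stood at 464, 427 and 409 TPM, a mean of 433 ± 27.8 TPM (SD, n = 3) and rank 369, and was highest in ATR 1. Its coefficient of variation, 6.43%, was the largest of the 10. Amotl1, a paralog with a like role, had 27.6, 26.8 and 28.55 TPM, with a mean of 27.7 ± 0.876 TPM. Amotl2 thus exceeded Amotl1 by 16.8, 15.9 and 14.3 times. It held 89.4% ± 0.814 of the TPM of the 3 angiomotin genes, the other being Amot at 23.7 ± 3.67 TPM. The read counts of Amotl1 were not whole in 2 libraries, so some of its reads may be shared with another gene.

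The kinases showed a smaller imbalance in the same sense, with the second paralog ahead. Lats2 stood at 123.5, 124.5 and 121.1 TPM, a mean of 123 ± 1.79 TPM (SD, n = 3), and differed little between libraries. Lats1 had 29.0, 27.2 and 28.55 TPM, with a mean of 28.3 ± 0.898 TPM. The ratio of Lats2 to Lats1 was 4.26, 4.57 and 4.24, and Lats2 made up 81.3% ± 0.632 of the pair.

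The coactivator pair was led by Yap1. Yap1 had 227, 202 and 219 TPM, a mean of 216 ± 13.1 TPM (SD, n = 3) and rank 822. Wwtr1, which encodes TAZ, had 115.3, 104.5 and 114.7 TPM, with a mean of 111 ± 6.06 TPM and rank 1664. Both were lowest in ATR 2. The ratio of Yap1 to Wwtr1 was 1.97, 1.93 and 1.91, with Yap1 at 66.0% ± 0.356 of their sum. Without correction for length, in CPM (reads scaled to library size), the mean ratio was 5.70 ± 0.211. The size of the lead therefore rests on the transcript lengths behind the TPM, and Wwtr1 had the fewest reads per TPM of the 10.

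Tead1, the transcription factor through which YAP and TAZ reach DNA, stood at 124, 109.8 and 116 TPM, with a mean of 117 ± 7.33 TPM (SD, n = 3). It contributed 55.9% ± 1.79 of the TPM of the 4 TEAD genes. Its paralogs, named here for comparison, were lower in each library. Tead3 had a mean of 44.9 ± 2.67 TPM, Tead2 one of 42.2 ± 3.27 TPM and Tead4 one of 5.13 ± 0.225 TPM. The 4 TEAD genes summed to 209 ± 11.1 TPM, and Yap1 with Wwtr1 to 327 ± 19.0 TPM. The share of Tead1 and the order of these sums rest on transcript lengths. In CPM the means were 489 for Tead1, 54.5 for Tead3, 41.8 for Tead2 and 12.5 for Tead4. Those of Yap1 and Wwtr1 were 458 and 80.3.

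**Figure D3:**
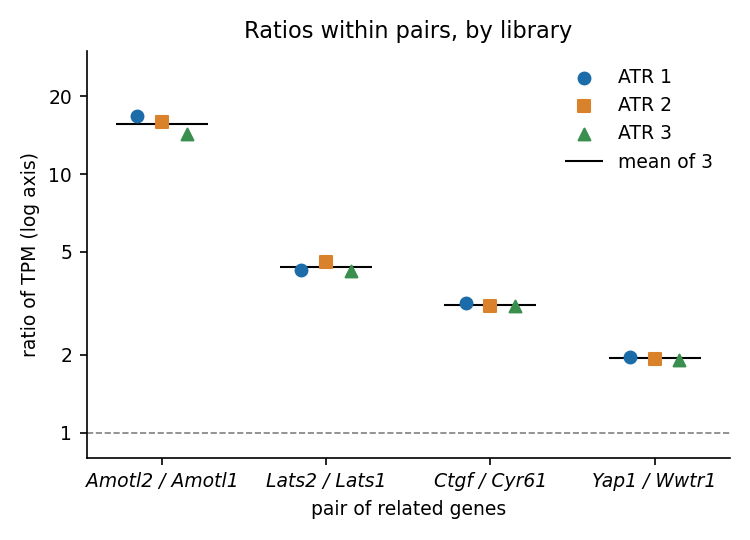
Ratio of TPM within 4 pairs of related genes, on a log axis, with 1 point for each ATR library and a bar at the mean; the dashed line marks equal levels. All 12 points lie above 1, from 1.91 for Yap1 to Wwtr1 in ATR 3 to 16.8 for Amotl2 to Amotl1 in ATR 1.

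The order by mean TPM was Ctgf, Cyr61, Ankrd1, Amotl2, Yap1, Lats2, Tead1, Wwtr1, Lats1 and Amotl1. Most neighbours in that order were separated in every library. Lats2 and Tead1 overlapped, with Lats2 higher in 2 of 3 libraries. Tead1 and Wwtr1 overlapped too, although Tead1 was higher in 3 of 3, with a mean ratio of 1.05 ± 0.0350. Lats1 and Amotl1 had the same value in ATR 3, with Lats1 higher in the other two. The mean log2 difference within a library was 0.0791 ± 0.0969 for Lats2 over Tead1 and 0.0306 ± 0.0347 for Lats1 over Amotl1, smaller than its SD in both. For Tead1 over Wwtr1 it was 0.0646 ± 0.0484, larger than its SD.

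The order rests on the transcript length behind each TPM. The number of reads behind 1 TPM, which follows that length, ran from 13.7 for Wwtr1 to 79.6 for Tead1, with a median of 21.3 over 10251 genes above 5 TPM. In CPM Wwtr1 was the lowest of the 10 at 80.3, and Tead1 at 489 stood above Yap1 at 458. Amotl2 likewise stood above Ankrd1 in CPM, at 858 against 689.9. Ctgf and Cyr61 kept the first places on both scales. No source used here gives the transcript models behind the TPM values.

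For Yap1 and Tead1 the number of reads behind 1 TPM also moved between libraries, for a reason that was not tested. Reads per TPM, relative to all genes, were 1.01, 1.02 and 0.972 in ATR 1, ATR 2 and ATR 3 for Yap1, and 1.01, 1.02 and 0.978 for Tead1. The highest value exceeded the lowest by 1.05 and 1.04 times, more than in 92.2% and 90.5% of the 10251 genes, whereas for the other 8 it was at most 1.006. Yap1 in ATR 3 over ATR 2 was accordingly 1.09 by TPM but 1.04 by reads, with an exact 95% interval of 1.01 to 1.08 for the latter.

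Differences between the libraries were small throughout. Across the 10 the highest TPM of a gene exceeded its lowest by 1.13 times at most, in Amotl2 and Tead1. A chi-square test of the 3 read counts of each gene against scaled library sizes asked whether they differed by more than counting noise, with Benjamini-Hochberg adjustment over 13309 genes. It found spread beyond that noise in 5 of the 10: Amotl2 (adjusted p = 1.2e-16), Tead1 (7.5e-09), Ctgf (1.1e-07), Yap1 (2.0e-07) and Ankrd1 (1.2e-05). Wwtr1 (0.073), Amotl1 (0.15), Lats1 (0.39), Lats2 (0.48) and Cyr61 (0.86) did not pass. The share of all genes tested that passed was 23.2%, but the test finds smaller differences in genes with more reads. Of 2717 genes with at least as many reads as Wwtr1, the least read of the 10, 47.6% passed. With all tested genes put in 20 equal bins by read number, the share that passed, averaged over the bins of the 10 genes, was 63.3%. The 5 of 10 lies near or below these shares and is no result about these genes.

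Leaving out ATR 1 reduced the 5 to 3, without Ctgf (adjusted p = 0.21) and Tead1 (0.50), and without ATR 2 the call for Ankrd1 was lost (0.18). A test on fewer libraries also called fewer of all genes, at 11.9% without ATR 1, 14.6% without ATR 2 and 17.3% without ATR 3. The test compares these libraries and not conditions, and it counts duplicated reads as independent.

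By reads, 4 of the 5 genes that passed (Ctgf, Amotl2, Yap1 and Tead1) were highest in ATR 1. Of the 1292 genes that passed and had at least as many reads as Wwtr1, 38.7% were highest there. Amotl2 reads in ATR 3 were 0.907 of those in ATR 1 (exact 95% interval 0.888 to 0.927, counting error only). For Yap1 the ratio of ATR 2 to ATR 1 was 0.913 (0.886 to 0.9402), and for Tead1 it was 0.913 (0.887 to 0.9402). Ankrd1 was lowest in ATR 2, with a ratio of ATR 3 to ATR 2 of 1.07 (1.04 to 1.09). Cyr61 reads were level, at a ratio of ATR 2 to ATR 1 of 1.006 (0.986 to 1.03).

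Marker levels of several cell types moved between the same libraries, and not all markers of a type moved alike. The single markers and Vgll3 named below were chosen after their values were seen. The summed level of the 12 granulosa markers was 3180.1 TPM in ATR 1 and 2880.2 and 2775 TPM in ATR 2 and ATR 3. Most of that sum was Gja1, at 2036, 1863 and 1821 TPM. Of 9 tested, 6 were called for spread. Beside this stand 23.2% of all genes and 45.8% of genes of like read number, by the read-number bins used above. Among the 6, 5 were highest in ATR 1 by reads, as were 35.6% of all genes called. Smooth muscle and pericyte markers summed to 16342 to 17684 TPM, highest in ATR 1, a sum set by Tagln and Acta2. Of 7 tested, 6 were called, beside 49.0% of genes of like read number. Among these 6, 4 were highest in ATR 1, while Cnn1 and Des were highest in ATR 2, Des at 7.22, 20.4 and 7.69 TPM. Surface epithelium markers summed to 2146 to 2306 TPM, again highest in ATR 1 and mostly Upk3b. Of 8 tested, 5 were called, beside 41.5% of genes of like read number. Among these 5, 2 were highest in ATR 1. The keratin Krt8, at 374, 412 and 429 TPM, and Krt18 were instead lowest there, and Msln was highest in ATR 2.

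Stromal markers summed to 3209 to 3707 TPM, lowest in ATR 1, a sum made up mostly of the collagen Col1a1. Their single genes differed far more than the sum. Thy1 stood at 23.2, 104 and 82.7 TPM, Prrx1 at 12.0, 46.98 and 29.2 TPM and Pdgfra at 1.36, 5.27 and 3.67 TPM, each lowest in ATR 1. Col14a1, Ogn and Dcn were instead highest in ATR 1. Of 8 stromal genes tested, 7 were called for spread, beside 35.4% of genes of like read number. These 7 comprised 4 highest in ATR 2, 2 in ATR 1 and 1 in ATR 3. Leukocyte markers, at 94.8 to 119.6 TPM and mostly Lyz2, were lowest in ATR 1. So were theca markers, at 81.2 to 115 TPM and mostly Star. In each 1 gene was called, Lyz2 of 6 tested and Star of 2. The shares called at like read number were 15.2% and 18.6%. Endothelial markers summed to 3.90 to 4.53 TPM and oocyte markers to 1.17 to 1.52 TPM. They had 0 called of 3 and of 1 gene tested, with or without adjustment of the chi-square p. After adjustment, 13.9% and 14.4% of genes of like read number were called. Amh, the endothelial genes Pecam1 and Cdh5, the oocyte gene Gdf9 and the theca gene Insl3 were listed at 0 in at least 1 library and had 1 to 4 reads over all 3, too few to set a library apart. The part of cell composition in the differences between libraries was not tested.

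**Figure D4:**
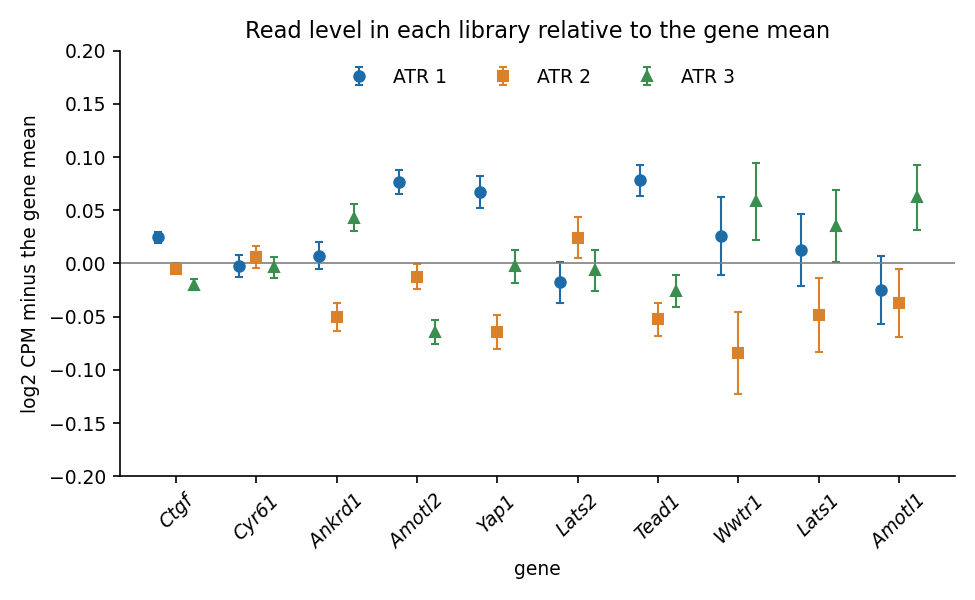
Read level of each gene in each library as log2 CPM minus the mean of the gene's 3 log2 values; bars are 1 SD of counting error. Tead1, Amotl2 and Yap1 sit highest in ATR 1, Ankrd1 sits lowest in ATR 2, and the points of Cyr61 lie within 0.01 of zero.

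The 22 gene signature of YAP and TAZ targets was expressed nearly throughout. Of 21 measured members, 20 reached 1 TPM and 11 of them 100 TPM, and the median level was 123 TPM. In TPM Ctgf, Cyr61 and Ankrd1 were its most abundant members. In CPM only Ctgf kept its place, as Crim1 at 1621 lay above Cyr61 at 1069, and Tgfb2 at 968, Myof at 861 and Amotl2 at 858 lay above Ankrd1. By TPM Ctgf alone took 39.4% ± 0.459 of the summed TPM of the 21. Without the 5 genes already described, 15 of 16 reached 1 TPM (71.4% of all genes did) and 6 of these 100 TPM, and the median level was 56.4 TPM. The lowest was Foxf2, a mesenchymal forkhead factor, with 2, 17.0 and 35 estimated reads.

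Spread beyond counting noise was called in 12 of the 21 signature genes (57.1%), beside 23.2% of all genes tested and 53.1% of genes of like read number, the average over read-number bins used above. Of the 12, 5 were highest in ATR 1, 4 in ATR 2 and 3 in ATR 3, beside 35.6%, 32% and 32.4% of the 3087 genes called. The count is thus near that of genes read as often. The largest relative spread was that of Foxf2 (adjusted p = 3.8e-06). Nuak2, a kinase related to AMPK, stood at 10.0, 14.2 and 12.7 TPM, and Nt5e, the surface enzyme CD73 that makes adenosine, at 7.28, 9.69 and 8.34 TPM. Both were lowest in ATR 1. The count fell to 5 without ATR 1 and to 7 without ATR 2, where 11.9% and 14.6% of all genes were called.

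The CCN family, to which Ctgf and Cyr61 belong, was uneven. Ctgf held 65.0% ± 1.09 and Cyr61 20.8% ± 0.663 of the TPM of the 6 family genes. Nov (Ccn3), a family member often opposed to Ctgf, stood at 869, 613 and 663 TPM. Its SD of log2(CPM + 0.5) was 0.24, against 0.023 for Ctgf and 0.0053 for Cyr61, and its spread was beyond counting noise (adjusted p = 9.8e-121). Wisp1 (Ccn4), a Wnt target, had 48.05, 54.3 and 56.4 TPM and was lowest in ATR 1. Wisp3 had 0, 0 and 1 reads. Spread was called in 3 of the 5 tested members (Nov, Ctgf and Wisp1), beside 23.2% of all genes and 53.4% of genes of like read number. Without ATR 1 it was called in 1 of them, beside 11.9% of all genes.

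The core kinases and adaptors of the Hippo pathway, the group that holds Lats1 and Lats2, were all expressed. All 15 reached 1 TPM and 2 of these 100 TPM, around a median of 33.98 TPM, so that Lats2 lay above the middle of its group and Lats1 below it. Map4k4, a kinase that acts on LATS beside the MST kinases, led at 175 ± 8.46 TPM, followed by Lats2 and by Taok2 at 66.6 ± 2.01 TPM. Spread was called in 3 of the 15 (Map4k3, Map4k5 and Map4k4), beside 23.2% of all genes and 32.8% of those of like read number. It was called in 1 without ATR 1 or without ATR 2, beside 11.9% and 14.6% of all genes. Map4k3 had 20.2, 23.8 and 19.6 TPM and was highest in ATR 2, while Map4k5, with 61.1, 52.9 and 55.9 TPM, was highest in ATR 1.

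Amotl2 was the most abundant of the 15 upstream and junctional regulators, which had a median of 36.1 TPM and all reached 1 TPM. Next in TPM came Ajuba, a LIM protein that inhibits LATS, at 143 ± 4.31 TPM, and Wwc2, a KIBRA relative, at 102 ± 4.93 TPM, whose order turned in CPM, at 220 against 336. Spread was called in 5 of the 15 (33.3%), beside 23.2% of all genes and 35.1% of those of like read number. It was called in 2 without ATR 1 and in 3 without ATR 3, beside 11.9% and 17.3% of all genes. Amot stood at 26.9, 19.7 and 24.4 TPM, lowest in ATR 2. Frmd6 had 65.3, 70.1 and 69.95 TPM, and the atypical cadherin Dchs1 a mean of 2.18 ± 0.340 TPM, both lowest in ATR 1.

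STRIPAK is a phosphatase complex that removes the activating mark from MST kinases. Of its 10 genes 9 reached 1 TPM, and the median level was 50.9 TPM. The scaffold subunit Ppp2r1a led at 288 ± 7.80 TPM, followed by the catalytic subunit Ppp2ca at 235 ± 6.83 and Slmap at 77.9 ± 6.44 TPM, and Strip2 was lowest at 0.373 ± 0.0814 TPM. Of the 10 genes, 2 were called for spread, Slmap and Ppp2r1a, beside 23.2% of all genes and 32.6% of those of like read number. Without ATR 1 the chi-square test called 0 of the 10 after adjustment and 3 at an unadjusted p under 0.05, beside 11.9% of all genes after adjustment.

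Yap1 and Tead1 were the most abundant genes of the group of coactivators, TEAD factors and VGLL cofactors in TPM, and also in CPM, in the other order. Wwtr1 came next in TPM but overlapped Vgll3, a TEAD cofactor, at 108, 102.6 and 103.2 TPM, and in CPM Vgll3 stood at 287 against 80.3 for Wwtr1. Of its 9 measured genes 8 reached 1 TPM, and the median level was 68.6 TPM. Vgll2, a cofactor of skeletal muscle, had 0, 0 and 3 reads. Of 8 tested genes 2 were called for spread, Yap1 and Tead1, 25.0% beside 23.2% of all genes and 41.8% of those of like read number. Without ATR 1 the 1 called was Yap1, beside 11.9% of all genes.

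**Figure D5:**
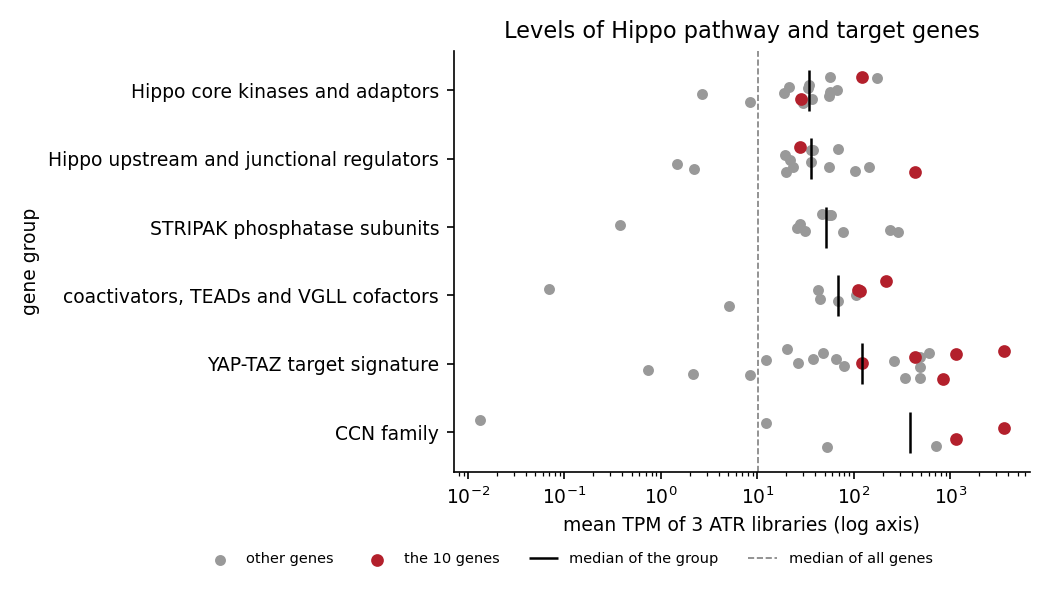
Mean TPM of each measured gene in 6 groups of Hippo pathway and target genes, on a log axis; red points are the 10 genes, grey points the others, short bars group medians, and the dashed line the median of all genes, 10.1 TPM. Every group median lies to the right of that line, from 33.98 TPM for core kinases to 384 TPM for the CCN family. The CCN median falls in the gap between Nov at 715 TPM and Wisp1 at 52.9 TPM, in a group that includes Ctgf and Cyr61.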

How the data were processed

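The authors deposited, per the file headers, a TPM value and an estimated count of reads per gene for 3 ATR libraries. Libraries were poly(A) selected, random primed and read as pairs of 150 bases, per the labels' protocols, with no step that marks strand, so reads of a gene and of an overlapping antisense gene cannot be told apart. Tools listed in the submitters' processing notes, without a role, were StringTie 2.1.5, HISAT2 2.2.1 and fastp 0.20.1, beside the builds GRCm38 and Rnor_6.0.

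Counts were rounded, and between 19.0% and 19.2% of values in a library were more than 0.001 from a whole number. Libraries were scaled with TMM (edgeR 4.0.16, R 4.3.3). The chi-square test was run on genes whose 3 counts summed to 30 or more, with a threshold of 0.05. It was tried on counts simulated with counting noise alone, which says nothing of duplicated or shared reads. Intervals are exact (Clopper-Pearson) and cover counting error only. Standard deviations on the log2 scale used log2(CPM + 0.5). Python 3.11.15 was used with numpy 2.4.6, pandas 2.3.3, scipy 1.17.1 and matplotlib 3.10.9.

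Of 73 genes in the lists, 71 were found by symbol, and Vgll1 and Arhgef17 were not matched. The 10 genes and the lists were chosen with earlier results of these data known. Named besides the 10 were, in each list, the 3 with the highest mean TPM, at most 3 of those under 1 TPM, and at most 3 called for spread with the largest SD. Outside this rule, Tead2, Tead3 and Tead4 were named as paralogs, Crim1, Tgfb2, Myof and Stk4 for their CPM, and Ptpn14 for its motif. Vgll3 and single cell type markers were also outside it. Genes with a pattern like that of the 10 are not named, because 3 libraries of 1 group give no pattern to match. The planned comparison of proteins was not run, and Control is not analysed here.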

Additional observations from a re-analysis of the deposited data

How the results depend on the processing

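No paired analysis was possible because Control is not analysed here, and for the same reason the planned contrast was not run. Of 113 values that alternatives gave for counts and ratios, 98 stayed close to the reported one. Close meant within 1.5 times for a count and within 1 SD between libraries for a ratio. Leaving out 1 of 3 libraries cannot move a mean ratio by 1 SD, so those ratios could not fail and are no evidence of stability. Each ratio by CPM, given next, fell outside 1 SD. In place of TPM, CPM gave mean ratios of 0.175 for Wwtr1 to Yap1 (0.516 by TPM), 3.11 for Lats2 to Lats1, 7.72 for Amotl2 to Amotl1 and 3.70 for Ctgf to Cyr61, since CPM is not corrected for length. With 1 library left out, the number of the 10 genes called for spread was 3 to 5, that of the 22 gene signature 5 to 10, of core kinases 1 to 3, of upstream regulators 2 to 4, of STRIPAK 0 to 2, of coactivators and TEAD factors 1 to 2 and of the CCN family 1 to 3, where fewer libraries give less power. Among genes with whole counts alone 1 STRIPAK gene was called, because Slmap was not tested. Scaling by library totals or DESeq2 1.42.0 size factors and other read minimums changed no call among the 10. For the 22 gene signature each of these gave 11 called in place of 12, and genes with whole counts alone gave 9. Library totals gave 6 upstream regulators in place of 5. The shares of genes called at a like read number were added after seeing the data. Wwtr1 had the fewest reads of the 10, 4570 in all. Its read ratio of ATR 3 to ATR 1 was 1.02 (exact 95% interval 0.953 to 1.10). That of ATR 2 to ATR 1 was 0.926 (0.861 to 0.996), and that of ATR 3 to ATR 2 was 1.10 (1.03 to 1.19). These intervals cover counting error only and are not adjusted for the number of genes. The chi-square test over the 3 libraries did not call Wwtr1 (adjusted p = 0.073).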
